A study of Mus musculus with 6 samples.

Results

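10 genes of the cell cycle engine were followed in juvenile mouse testis: the D-type cyclin genes Ccnd1 and Ccnd3, the E-type genes Ccne1 and Ccne2, the A-type gene Ccna2, the B-type genes Ccnb1, Ccnb2 and Ccnb3, the kinase gene Cdk1 and the polo-like kinase gene Plk1. They were chosen by name, as the rows of the deposited count table whose Ensembl identifiers map to these symbols, and 10 of 10 were found among 49671 gene rows. RNA came from whole testes of C57BL/6J mice aged 12 days post-partum, from 3 wild-type mice (Ankrd31+/+) and 3 knockout mice (Ankrd31-/-). The product of Ankrd31 helps to place the programmed DNA breaks of meiosis. How the knockout allele was built is not stated in the labels. The comparison asks how the loss of Ankrd31 affects the testis transcriptome.

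Cyclins are the regulatory subunits of cyclin-dependent kinases, and their stepwise synthesis and destruction drives a cell through its cycle. D-type cyclins with Cdk4 or Cdk6 start the inactivation of the Rb family, E-type cyclins with Cdk2 bring the cell into S phase, A-type cyclins act in S phase and G2, and B-type cyclins with Cdk1 trigger division. In a testis of this age, spermatogonia and Sertoli cells still divide, while the first wave of spermatocytes is in early meiotic prophase, where DNA has been replicated and division is held back. In bulk tissue such as this, fewer cells of a type and less RNA per cell cannot be told apart.

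The libraries held 21014060 to 22706296 counts assigned to genes. Ankrd31 had 84.9, 52.3 and 63.2 CPM (counts normalised for each library's TMM-adjusted total) in wild-type replicates 1, 2 and 3 against 40.8, 33.2 and 38.02 CPM in knockout. Each knockout library therefore lay below every wild-type library, but the counts cover the whole gene and check the genotype labels only in part. Its log2 fold change of -0.84 ± 0.17 (SE) did not pass in edgeR's quasi-likelihood test (adjusted p = 1), but passed with the replicate number as a block (-0.82, adjusted p = 0.00505). The tissue label was met by its defining markers: the Sertoli gene Sox9 stood at 218 to 259 CPM, the spermatogonial gene Kit at 170 to 193 CPM and the synaptonemal complex gene Sycp3 at 176 to 366 CPM over the 6 libraries, while the spermatid gene Acrv1 was at 0.0916 CPM or less. Wild-type replicate 3 stood apart in 5 epididymis and rete markers, which summed to 61.4 CPM there and to 2.87 to 8.79 CPM in the other libraries. Knockout replicate 2 stood apart in the sum of 6 Leydig cell markers, with 744 CPM against 239 to 372 CPM. Not every marker did so, since Hsd3b1 had 178 CPM there and 207 CPM in wild-type replicate 3. Wild-type replicate 1 stood apart in Ldhc, a lactate dehydrogenase gene of later spermatocytes, with 7.92 CPM against 1.69 CPM or less elsewhere.

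Transcripts of the 10 genes were all present, with Ccnb2, Ccne2, Ccna2 and Ccnd1 highest and Ccnb1 lowest per length in wild type. Levels between genes are given as CPM per kilobase of summed exon length, as means of the wild-type libraries (SD, n = 3). Ccnb2 stood at 26.4 ± 3.17, Ccne2 at 26.1 ± 4.56, Ccna2 at 25.9 ± 1.70 and Ccnd1 at 24.02 ± 2.72. These 4 did not differ beyond their spread, since the wild-type ranges of each neighbouring pair overlapped. Plk1 followed with 18.7 ± 1.46 and Cdk1 with 13.97 ± 1.87. In the run from Ccnd1 through Plk1 and Cdk1 to the next gene, Ccnb3, the wild-type ranges of neighbours were separate. Ccnb3 (9.37 ± 3.04), Ccnd3 (7.43 ± 0.669) and Ccne1 (7.29 ± 0.606) overlapped, and Ccnb1 was lowest at 4.87 ± 0.368. The exon length sums the exons of every isoform and reached 8775 bases for Ccnd3 against 1531 for Ccnb2, so a gene with many alternative exons is understated on this scale.

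**Figure D1:**
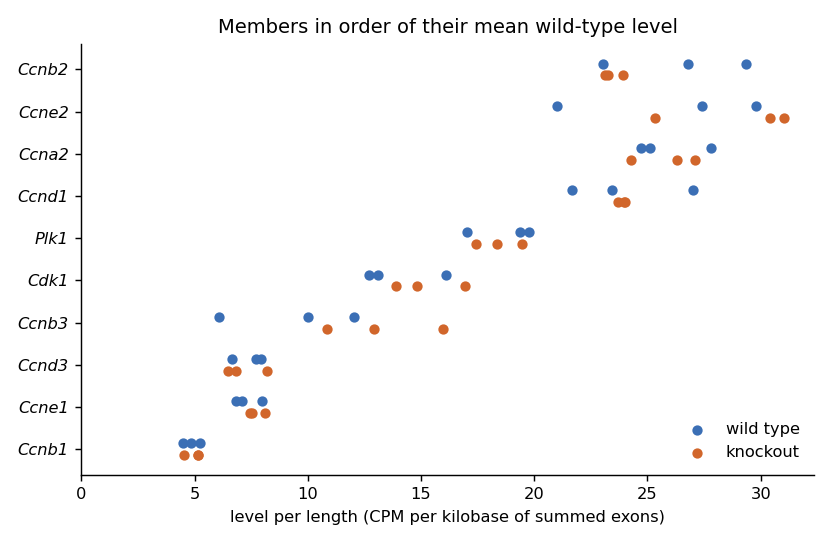
Level per length (CPM per kilobase of summed exons, horizontal axis) of the 10 genes, ordered by their wild-type mean, with 1 point per library (3 wild type, blue; 3 knockout, orange). Ccnb2, Ccne2, Ccna2 and Ccnd1 overlap at the top, and Ccnb1 lies lowest at 4.87 in wild type.

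The D-type cyclin genes link growth signals to cycle entry, and the log2 fold changes of Ccnd1 and Ccnd3 were smaller than their standard errors. Ccnd1 (ENSMUSG00000070348, mm10 chromosome 7, 144929931 to 144939925, minus strand) had 110, 102 and 127 CPM in wild type (replicates 1, 2 and 3) against 113, 112 and 113 CPM in knockout. The knockout values were close together and lay within the wild-type range. Its log2 fold change, knockout over wild type, was -0.01 ± 0.08 (SE), with a 95% interval of -0.19 to 0.17. Ccnd3 (ENSMUSG00000034165, chromosome 17, 47505051 to 47599691, plus strand) had 58.5, 67.6 and 69.5 CPM in wild type and 60.1, 71.9 and 56.6 CPM in knockout, so the groups overlapped. Its log2 fold change was -0.05 ± 0.10, and the 95% interval of -0.28 to 0.17 corresponds to a change between -17.6% and 12.8%. Within a library, Ccnd1 per length was 2.81 to 3.72 times as high as Ccnd3.

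The E-type genes, whose products with Cdk2 start DNA replication, stood slightly higher in each knockout library than in the wild-type library of the same number. Ccne1 (ENSMUSG00000002068, chromosome 7, 38097984 to 38107534, minus strand) had 21.2, 18.2 and 18.8 CPM in wild type and 21.6, 19.8 and 20.004 CPM in knockout. Ccne2 (ENSMUSG00000028212, chromosome 4, 11191351 to 11204779, plus strand) had 104, 73.4 and 95.8 CPM in wild type and 109, 88.5 and 106 CPM in knockout. For both genes the groups overlapped, and wild-type replicate 2 was the lowest of the 6 libraries. The log2 fold changes were 0.08 ± 0.09 for Ccne1 and 0.15 ± 0.13 for Ccne2 (SE), and the 95% interval for Ccne2 was -0.15 to 0.45. Without wild-type replicate 2 the value for Ccne2 was 0.02, and without wild-type replicate 1 it was 0.26. Ccne2 per length exceeded Ccne1 by 3.08 to 4.04 times in every library.

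Ccna2, the A-type cyclin gene of dividing somatic and germ cells (ENSMUSG00000027715, chromosome 3, 36564865 to 36572150, minus strand), was the member with the smallest difference. It had 102, 114 and 101 CPM in wild type and 99.1, 107 and 111 CPM in knockout, with means of 105.6 ± 6.94 and 105.7 ± 5.98 CPM (SD, n = 3 each). The log2 fold change was 0.00 ± 0.07 (SE), and the 95% interval bounds a change at -10.3% and 11.7%. Its meiotic counterpart Ccna1, needed for spermatocytes to enter their first division, had only 0.871 CPM in wild type and 0.773 CPM in knockout.

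Of the B-type genes, Ccnb1, the main mitotic cyclin (ENSMUSG00000041431, chromosome 13, 100778650 to 100786570, minus strand), had 19.02, 22.1 and 20.5 CPM in wild type and 21.6, 21.8 and 19.1 CPM in knockout. The groups overlapped and the log2 fold change was 0.02 ± 0.10 (SE). The level of Ccnb1 is uncertain, because the annotation holds near-identical processed copies among which reads could have been split: Ccnb1-ps matches it over 1287 bases at 99.2% identity and Gm12856 over 1294 bases at 98.1%. These copies carried 1547 and 871 counts over the 6 libraries, against 2731 for Ccnb1 itself. Ccnb1 and its 3 copies in the table summed to 36.1, 42.5 and 38.7 CPM in wild type and 40.7, 41.5 and 39.1 CPM in knockout, so the sum overlapped between the groups as well. The copies Gm8416 (1290 bases at 97.3%) and Gm7483 (383 bases at 96.6%) had no row of counts, so the sum leaves them out. The low place of Ccnb1 in the order of levels carries the same uncertainty. Ccnd3 has a copy too, Ccnd3-ps, with 400 counts against 8445.

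Ccnb2, a cyclin of the G2 to M transition that is dispensable in mice (ENSMUSG00000032218, chromosome 9, 70407692 to 70421547, minus strand), had 44.9, 41.0 and 35.3 CPM in wild type and 36.6, 35.4 and 35.6 CPM in knockout. The knockout libraries lay close together at the level of the lowest wild-type library, wild-type replicate 3. The means were 40.4 ± 4.85 and 35.9 ± 0.652 CPM (SD, n = 3), and the log2 fold change was -0.17 ± 0.09 (SE), with a 95% interval of -0.38 to 0.03. The pair ratios, knockout over wild type of the same number on the log2 scale, were -0.29, -0.21 and 0.01, so pair 3 showed no difference. Wild-type replicate 3 is the library with epididymis and rete markers, and their part in this was not tested. Ccnb2 had the most negative value of the 10 genes.

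Ccnb3 varied most of the 10 genes. It encodes a B-type cyclin that is known from early meiotic prophase in the testis and is needed for the first meiotic division of oocytes (ENSMUSG00000051592, chromosome X, 6979652 to 7041619, minus strand). It had 55.0, 27.7 and 45.7 CPM in wild type (replicates 1, 2 and 3) against 72.9, 49.5 and 59.1 CPM in knockout. Each knockout library was above the wild-type library of its number, but knockout replicate 2 lay below wild-type replicate 1, so the groups overlapped. The means were 42.8 ± 13.9 and 60.5 ± 11.8 CPM (SD, n = 3). The log2 fold change was 0.50 ± 0.27 (SE), a 1.42-fold higher level with a 95% interval of 0.890 to 2.25, and it did not pass in edgeR's quasi-likelihood test (adjusted p = 1). The pair ratios were 0.41, 0.84 and 0.37 on the log2 scale.

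Cdk1, the kinase that B-type and A-type cyclins activate (ENSMUSG00000019942, chromosome 10, 69336635 to 69352938, minus strand), had 55.5, 43.8 and 45.1 CPM in wild type and 58.4, 51.1 and 47.9 CPM in knockout. Each knockout library was slightly above its wild-type partner, and the groups overlapped. Its log2 fold change was 0.12 ± 0.11 (SE), with a 95% interval of -0.12 to 0.37. Plk1, a kinase that activates the Cdk1 switch and acts on the spindle and on disassembly of the synaptonemal complex (ENSMUSG00000030867, chromosome 7, 122159439 to 122169873, plus strand), had 43.4, 42.6 and 37.5 CPM in wild type and 42.8, 38.3 and 40.4 CPM in knockout. The knockout values lay within the wild-type range, and the log2 fold change was -0.02 ± 0.08, with a 95% interval of -0.21 to 0.16.

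**Figure D2:**
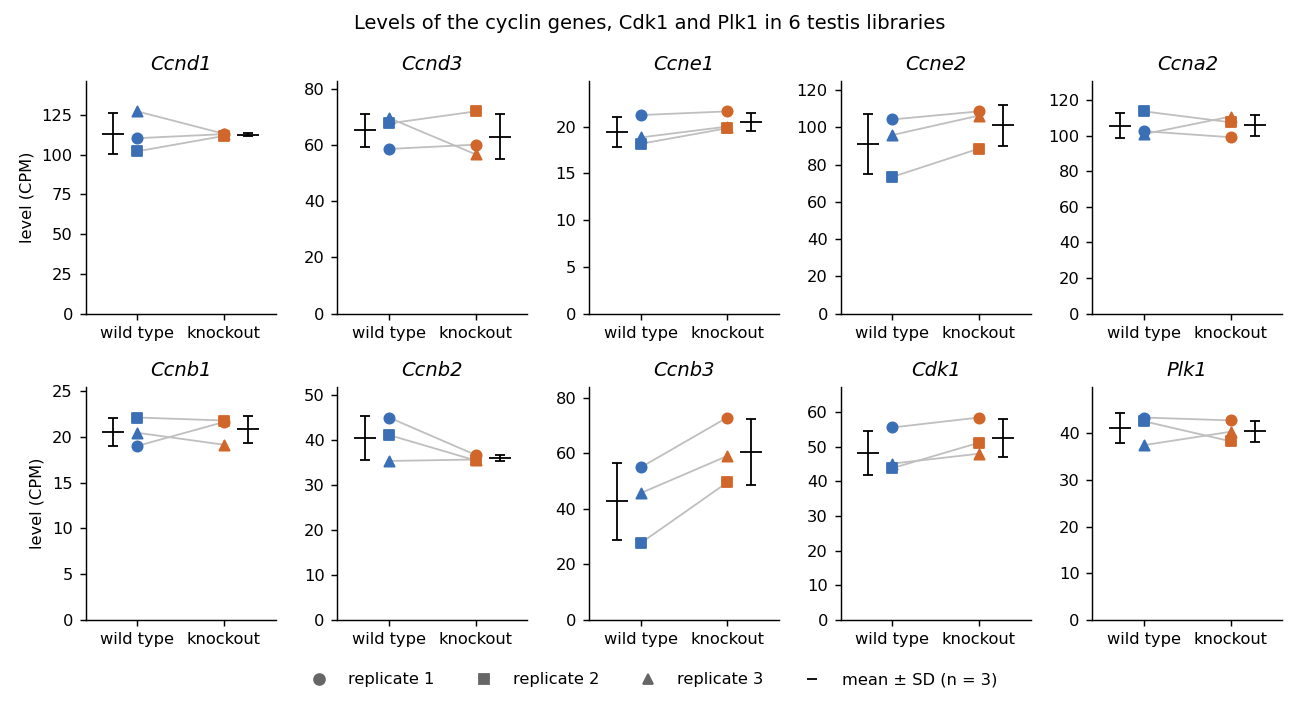
CPM of each gene (vertical axes from 0, a scale per gene) in the 3 wild-type (blue) and 3 knockout (orange) libraries; grey lines join libraries of the same replicate number, and bars beside the points are mean ± SD (n = 3). Lines go up in all 3 pairs for Ccnb3, Ccne1, Ccne2 and Cdk1, and the genotypes overlap for each of the 10 genes.

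Some counts overlap with genes on the opposite strand: Ccna2 with Exosc9, Ccnd1 with LTO1, Ccnd3 with Bysl, Ccne2 with Ints8 and Plk1 with Gm44985. The library kit keeps strand, but the strand setting of the counting is not stated, so reads of the shared stretches could have been lost or misassigned. Ccnb2, Ccnb3, Ccne1 and Cdk1 had neither such an overlap nor a near-identical copy (95% identity over 200 bases or more) in the annotation.

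Stretches next to the transcription start are shown for the division genes Cdk1, Ccnb2 and Plk1 and for Ccnb3, the member whose values varied most. The letters TTTGAA spell a form of the cell cycle genes homology region, which the MuvB complex binds through Lin54. CCAAT is the box of the factor NF-Y, and genes of G2 and M phase are known to carry both elements. Other forms of the homology region were not searched. RefSeq promoters (GRCm38.p6, the assembly of mm10; 250 bases before to 50 after the start) matched 7 of the 10 genes, Ccnd3 with 2 starts. In the runs below, 5′ to 3′ on the gene's strand, capitals mark TTTGAA, and CCAAT or its reverse complement ATTGG:
Cdk1, chr10:69352910-69353032, minus strand: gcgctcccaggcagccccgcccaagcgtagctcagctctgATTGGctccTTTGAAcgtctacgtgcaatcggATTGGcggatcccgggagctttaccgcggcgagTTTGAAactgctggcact
Ccnb2, chr9:70421532-70421674, minus strand: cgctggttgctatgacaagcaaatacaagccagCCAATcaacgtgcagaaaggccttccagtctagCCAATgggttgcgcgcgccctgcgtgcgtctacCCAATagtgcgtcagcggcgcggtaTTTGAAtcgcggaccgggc
Plk1 upstream, chr7:122159315-122159434, plus strand: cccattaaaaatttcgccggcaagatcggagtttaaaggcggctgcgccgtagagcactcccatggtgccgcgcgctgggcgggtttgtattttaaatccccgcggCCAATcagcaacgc
Plk1 site, chr7:122159454-122159483, plus strand: ccagcgccgcgTTTGAAttcggggaggagc
Ccnb3, chrX:7041590-7041739, minus strand: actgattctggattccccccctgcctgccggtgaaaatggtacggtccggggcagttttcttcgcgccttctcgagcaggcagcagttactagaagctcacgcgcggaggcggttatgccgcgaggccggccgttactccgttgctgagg

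Both strands were searched over the full 300 bases, and no match overlapped another in these promoters. Cdk1 held 2 TTTGAA and 3 CCAAT matches, Ccnb2 2 and 3, and Plk1 1 and 1, with a TTTGAA starting at position -15 in Cdk1, 5 in Ccnb2 and 31 in Plk1, counted from the RefSeq start as 1. Ccnb1 held 2 CCAAT matches and no TTTGAA, 1 of the 2 Ccnd3 promoters held a CCAAT match, and Ccnb3 and Ccne1 held neither motif. Of all 32851 promoters of this length in the table, 17.9% held TTTGAA, 37.4% held CCAAT and 6.95% held both. A match is a run of letters and was not tested as a site.

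None of the 10 genes passed at an adjusted p under 0.05 in edgeR's quasi-likelihood test over 18040 genes, where 0 genes passed (0%). At an unadjusted p under 0.05 there were 0 of the 10 members and 374 of all genes (2.07%). The log2 fold changes ran from -0.17 to 0.50, with 6 above 0 and 4 below 0 and a median of 0.012. Over all 18040 genes the median was -0.005, with 8614 above 0 and 9418 below 0. The genotypes did not overlap in 0 of the 10 genes, against 6.59% of all genes. DESeq2 and limma voom called 0 members as well, with 2 and 0 genes called over all and 253 and 382 at an unadjusted p under 0.05, among them Ccnb3 in limma voom.

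Taken by replicate number, 4 of the 10 genes (Ccnb3, Ccne1, Ccne2 and Cdk1) were higher in 3 of 3 pairs, a pattern of 13.9% of all genes, and 0 were lower in 3 of 3, against 14.7%. With the replicate number as a block, edgeR called 8 of all genes (0.0443%), and 0 of the 10. The blocked intervals excluded 0 at an unadjusted p under 0.05 for 4 members, Ccnb3, Ccne2, Cdk1 and Ccnb2, where 7.48% of all genes did so. The blocked log2 fold changes were 0.53 ± 0.09 for Ccnb3, 0.16 ± 0.05 for Ccne2, 0.13 ± 0.06 for Cdk1 and -0.17 ± 0.07 for Ccnb2 (SE). Among the members, Ccnb3 had the smallest adjusted p of the blocked edgeR fit, at 0.155. Without pair 2, the blocked edgeR fit called Ccnb3 (log2 fold change 0.39, adjusted p = 0.00109) and 57 of 18157 genes in all. That fit has 2 pairs, and over the 18 alternatives the adjusted p of Ccnb3 ran from 0.00109 to 1.

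**Figure D3:**
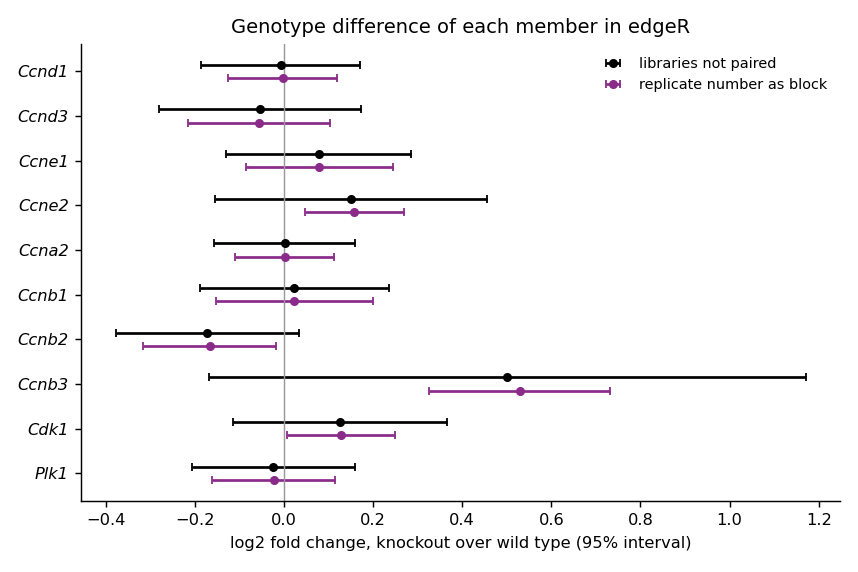
Log2 fold change of each gene, knockout over wild type (horizontal axis), with 95% intervals from edgeR without (black) and with (purple) the replicate number as a block. All 10 unblocked intervals include 0, and Ccnb3 lies farthest to the right at 0.50 and 0.53.

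Ccnb3, Ccne2, Cdk1 and Ccne1 were all highest in knockout replicate 1 and lowest in wild-type replicate 2, as was the summed level of early meiotic prophase markers. The 12 marker genes of that stage (Stra8, Rec8, Sycp1, Sycp2, Sycp3, Dmc1, Spo11, Hormad1, Smc1b, Syce1, Syce2 and Syce3) summed to 2317, 1397 and 1699 CPM in wild type and 2329, 1730 and 1944 CPM in knockout. Of the 12, 10 had a positive log2 fold change, against 8614 of all 18040 genes. In edgeR 0 of the 12 passed, and none was at 0 in any library. The sum was highest in replicate 1 of both genotypes and lowest in wild-type replicate 2, and its log2 pair ratios were 0.01, 0.31 and 0.19. Ccnb3, centred on its own mean over the 6 libraries, lay 0.84 below that mean in wild-type replicate 2 (a value of -0.84 on the log2 scale) and at 0.56 in knockout replicate 1. Wild-type replicate 2 was also at -0.38 for Ccne2, -0.19 for Cdk1, -0.14 for Ccnd1 and -0.13 for Ccne1. It was at 0.11 for Ccna2, 0.10 for Ccnb1, 0.11 for Ccnb2, 0.08 for Ccnd3 and 0.06 for Plk1. How many of all genes were highest in knockout replicate 1 and lowest in wild-type replicate 2 was not computed. The cause of that shared order was not tested.

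**Figure D4:**
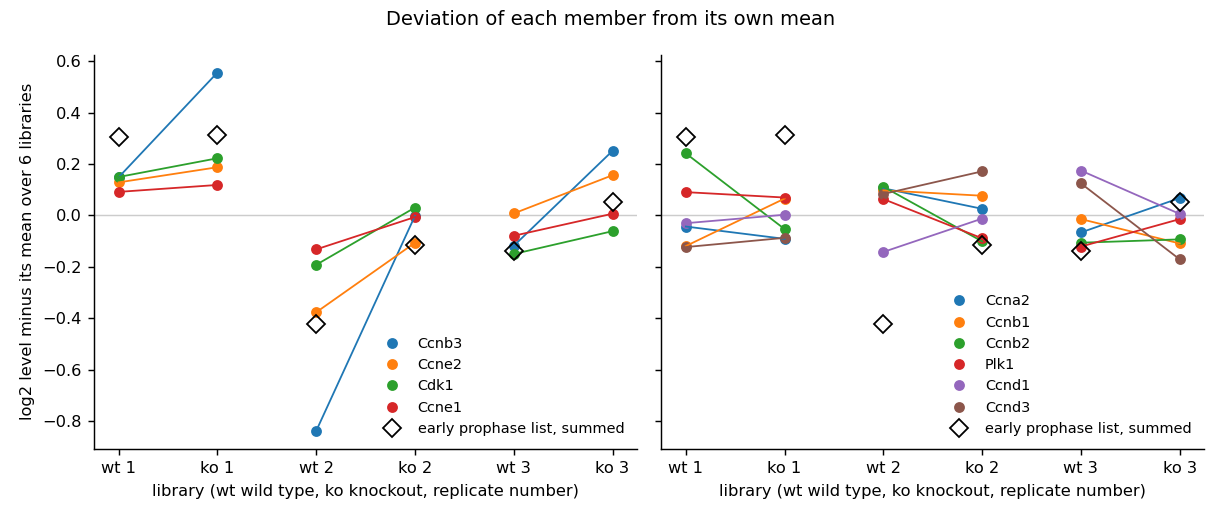
Log2 level minus its mean over 6 libraries (vertical axis) for the 4 genes higher in 3 of 3 pairs (left) and the other 6 genes (right), by library in pairs of the same replicate number; open diamonds are the summed early prophase list. In wild-type replicate 2 Ccnb3 is at -0.84 and Ccne2 at -0.38 (left), while Ccna2 is at 0.11 and Ccnd1 at -0.14 (right).

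Set against those markers, Ccnb3 was higher in every knockout library than in any wild-type library. Per 1000 CPM of the early prophase list, Ccnb3 had 23.7, 19.8 and 26.9 CPM in wild type and 31.3, 28.6 and 30.4 CPM in knockout, with means of 23.5 ± 3.56 and 30.1 ± 1.36 (SD, n = 3). The other 9 members did not have all knockout libraries above all wild-type libraries on this scale, and 0.399% of all 18040 genes did. That share counts only knockout above wild type and is low by construction. The list's sum was lowest in wild-type replicate 2, so a gene of even level has its highest ratio there and cannot be counted. Cdk1 had 27.3 ± 3.73 and 26.4 ± 2.70 on this scale, and Ccne2 51.3 ± 5.81 and 50.8 ± 4.05. With the log2 sum of the list as a covariate, edgeR gave Ccnb3 a log2 fold change of 0.32 ± 0.10 (SE, adjusted p = 1). The same fit gave 0.05 ± 0.07 for Cdk1, 0.05 ± 0.07 for Ccne2 and -0.21 ± 0.09 for Ccnb2. At an unadjusted p under 0.05 it held 2 of the 10 members, Ccnb2 and Ccnb3, and 2.71% of all genes. The ratio and the covariate were chosen after the values were seen, so they describe these libraries.

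The root-mean-square difference between 2 centred log2 profiles over 6 libraries was 0.07 to 0.30 in the 36 pairs without Ccnb3 and 0.25 to 0.52 in the 9 pairs with it. These ranges overlap, and the distance grows with a gene's own spread over the libraries, which was 0.43 for Ccnb3 and 0.20 or less for the others (root mean square, log2). The closest pair was Ccne1 with Cdk1 (0.07), followed by Ccnb2 with Plk1 (0.09), and the nearest member to Ccnb3 was Ccne2 (0.25). Within a library Ccnb3 per length was 0.226 to 0.434 of Ccnb2 in wild type and 0.469 to 0.668 of it in knockout. The ratio of Ccnb2 to Cdk1 per length was 1.82, 2.11 and 1.76 in wild type and 1.41, 1.56 and 1.67 in knockout. Both ratios were thus separate between the genotypes, were picked after their values were seen and were not tested. The genotypes overlapped in the other ratios computed: Ccnb2, Ccnb3 and Cdk1 to Ccnb1, and Ccna2 and Plk1 to Cdk1. The genotypes also overlapped for Ccnd1 to Ccnd3 and for Ccne2 to Ccne1. How often such ratios separate the genotypes among all genes was not computed.

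Of 12647 tested genes with a mean of at least 5 CPM, the 3 most like Ccnb3 over the 6 libraries were Tex13c2 (root-mean-square difference 0.08 on the log2 scale), Supt20-ps (0.09) and Pet2 (0.10), and all 3 lie on the X chromosome, as do Ccnb3 and 4.4% of the genes compared. Tex13c2 had 11.05, 5.50 and 8.38 CPM in wild type and 16.2, 10.4 and 12.1 CPM in knockout. Pet2 had 67.0, 32.7 and 45.4 CPM in wild type and 86.4, 53.9 and 66.6 CPM in knockout. Their order over the libraries follows from the choice by likeness. The 3 most like Cdk1 were Fam219b (0.02), Pemt (0.02) and Dnajb11 (0.02), on chromosomes 9, 11 and 16.

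In the wider cell cycle machinery no listed gene was called in the edgeR fits on all 6 libraries. All 97 genes of 7 lists were tested, 0 passed in edgeR in either direction with or without the block, and 0 had an unadjusted p under 0.05 without it. With the block 8 of 97 (8.25%) had one, against 7.48% of all genes. The median log2 fold change was 0.024, with 58 genes above 0 and 39 below 0. Of all 18040 genes, 8614 were above 0 and 9418 below 0.

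Among partners of the cyclins, 4 of 12 had values above 0 and the median was -0.025. Ccnd2, the D-type cyclin of spermatogonia and Sertoli cells, had 212, 307 and 264 CPM in wild type and 202, 244 and 200 CPM in knockout. Each knockout library was below its wild-type partner, with log2 pair ratios of -0.07, -0.33 and -0.40, and the groups overlapped. Its log2 fold change was -0.28 ± 0.14 (SE), and it did not pass with the replicate block (adjusted p = 0.276 in edgeR). In the blocked edgeR fit without pair 1, which called 63 of 18104 genes, it fell by 0.36 (adjusted p = 0.0163). The blocked edgeR fits without pair 2 and pair 3 gave -0.23 and -0.20 (adjusted p = 0.451 and 0.949). Each of these fits has 2 pairs. Without wild-type replicate 2 the unblocked value was -0.14. Cdk4 had -0.06 ± 0.08 and Cdk6 -0.06 ± 0.10, both kinases that D-type cyclins activate.

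Of 7 genes for inhibitors of these kinases, 4 had values above 0 (median 0.031). Cdkn2d, which binds Cdk4 and Cdk6 and is known from spermatocytes, had a log2 fold change of 0.16 ± 0.11, the p53 target Cdkn1a had 0.22 ± 0.17 and Cdkn2b had 0.17 ± 0.14 (SE). Of 9 genes for enzymes that set the phosphorylation of Cdk1 or guard it, 7 had values above 0 (median 0.026). The phosphatase gene Cdc25a, which removes the inhibitory phosphates, had 0.08 ± 0.07 at 108 CPM in wild type, and Ensa, an inhibitor of the phosphatase that opposes Cdk1, had 0.07 ± 0.06. Wee2, the kinase gene of oocytes, had 0.61 ± 0.42 at 0.456 and 0.699 CPM, a value that rests on few counts.

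Of 15 genes for the ubiquitin machinery that destroys cyclins, 7 had values above 0 (median -0.001). The anaphase-promoting complex genes Anapc11 and Anapc10 had -0.11 ± 0.07 and 0.10 ± 0.08, and the ligase scaffold Cul3 had 0.08 ± 0.06 (SE). Of 20 E2F, Rb and MuvB genes, which switch cell cycle transcription on and off, 13 had values above 0 (median 0.058). Rbl2, the Rb relative p130, had 60.5, 58.0 and 66.1 CPM in wild type and 66.7, 67.7 and 70.6 CPM in knockout. The log2 fold changes were 0.15 ± 0.07 for Rbl2, 0.15 ± 0.10 for the MuvB subunit Lin52 and 0.10 ± 0.07 for E2f3. In these 3 genes of the list every knockout library lay above every wild-type library, and no other gene of the 97 was without overlap (3.09%, against 6.59% of all genes).

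Of 19 mitotic kinase and spindle genes, 13 had values above 0 (median 0.039). The checkpoint kinase Bub1 had 220, 152 and 196 CPM in wild type and 231, 194 and 218 CPM in knockout, and like Ccne2 it was lowest in wild-type replicate 2 and higher in 3 of 3 pairs. Its log2 fold change was 0.18 ± 0.13 (SE), that of the spindle assembly factor Tpx2 0.10 ± 0.07 and that of the kinetochore gene Cenpf 0.10 ± 0.09. Of 15 replication and proliferation genes, 10 had values above 0 (median 0.042). The replicative helicase factor Cdc45 had 0.12 ± 0.08, the licensing inhibitor Gmnn 0.08 ± 0.07 and the topoisomerase Top2a 0.10 ± 0.09.

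**Figure D5:**
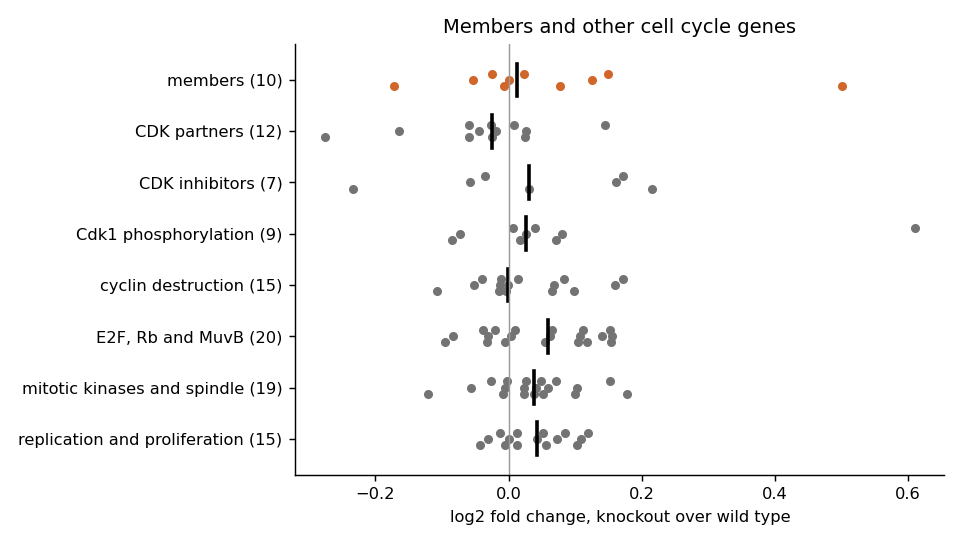
Log2 fold change, knockout over wild type (horizontal axis), of the 10 members (orange) and of the genes of 7 cell cycle lists (grey, number of genes in brackets), 1 point per gene with the list's median as a black bar. Medians lie between -0.025 and 0.058, and the outlying points are Wee2 at 0.61, Ccnb3 at 0.50 and Ccnd2 at -0.28.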

How the data were processed

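The deposited table holds the authors' raw read counts for each gene in 6 libraries. The submitters' processing notes list bcl2fastq 2.19.1, GSNAP, featureCounts 1.6.0 and mm10; neither the strand setting nor the handling of multiply matching reads is stated. Another deposited column, per the file headers, is each gene's summed exon length in bases.

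Spike-in rows (92 of 49763, 1 count in all) were left out, and 49326 of 49671 gene rows found a GENCODE M21 symbol. Columns were joined to samples by title; per the labels and design text each genotype has 3 mice. The test was edgeR 4.0.16 under R 4.3.3: filterByExpr, TMM (factors 0.991 to 1.008), robust quasi-likelihood F test, two-sided, Benjamini-Hochberg adjustment over 18040 genes and a threshold of 0.05, with no block. Same-numbered libraries deviated together from their group means (r = 0.43, 0.26 and 0.28, all above 0.1). Numbers were therefore used as pairs in the pair ratios and the block, but not in the main test. The pairing is a hint from the data and is not stated in the labels. Running numbers in the sample titles alternate between wild type and knockout of the same replicate number, without a stated meaning. Centred profiles used log2 CPM with a prior count of 2. Alternatives were DESeq2 1.42.0, limma 3.58.1 (voom), other factors and filters, the block, and omission of libraries or pairs. The fit was tested on simulated counts. Copies were sought with blastn 2.17.0 among GENCODE M21 transcripts. Replicates differed by more than sampling noise (chi-square over its degrees of freedom 7.35 to 12.96).

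Genes named are the members, Ankrd31, the 3 genes of smallest unadjusted p in each list, the 3 genes most like Cdk1 and Ccnb3, and listed markers; Ccna1 was named after its value was seen. Members and lists were chosen with earlier results of these data known.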

Additional observations from a re-analysis of the deposited data

How the results depend on the processing

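Of 180 values of the 10 members over 18 alternatives, 159 kept their direction and 1 passed (Ccnb3 with the replicate block and without pair 2). Ccnb2, Ccnb3, Ccne1, Ccne2 and Cdk1 kept their direction in all 18; Ccnb3 ran from 0.27 without wild-type replicate 2 to 0.73 without wild-type replicate 1. Leaving out 1 library moved Cdk1 between 0.042 and 0.241, Ccnb2 between -0.253 and -0.089, Ccne1 between 0.032 and 0.147 and Ccne2 between 0.016 and 0.258. The other 5 lie near 0 and changed sign, and the cause was not tested. Leaving out 1 library gave -0.032 to 0.057 for Ccna2, -0.03 to 0.082 for Ccnb1, -0.076 to 0.091 for Ccnd1, -0.152 to 0.017 for Ccnd3, -0.08 to 0.023 for Plk1, -0.009 to 0.162 for Cenpf, -0.102 to 0.001 for Cdk4 and -0.158 to 0.014 for Cdk6. With the replicate block and 1 pair left out, reversed values were -0.064 for Ccna2, -0.055 for Ccnb1, 0.083 for Ccnd1, 0.064 for Ccnd3, 0.042 for Plk1 and 0.022 for Cdk6. Without composition factors Ccna2 had -0.015, and with the early prophase covariate, added after the data were seen, Ccnd3 had 0.01 and Cdk6 0.024. Over all genes, 0 passed in edgeR (374 at an unadjusted p under 0.05), 2 in DESeq2, 1 without the count filter, 8 with the replicate block, 1 with the block in limma voom and 1 with the covariate. The block without pair 1, 2 or 3 called 63, 57 and 0 genes, with 1 member (without pair 2) and 1 gene of the pathway lists (Ccnd2, without pair 1) among them; leaving out 1 library called 0. With 3 libraries a group and 0 calls, even Ankrd31 at -0.84 did not pass in edgeR with neither block nor covariate. Ankrd31 passed without the block in DESeq2 (adjusted p = 0.00299) and in edgeR with the covariate (adjusted p = 0.000435). An absent call therefore does not show an unchanged gene.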
